A study of Rattus norvegicus with 6 samples.

Results

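The 6 mature arms of the rat hairpins miR-28, miR-151 and miR-708 were examined, out of 728 miRNAs listed in the counts. They were taken by name: rno-miR-28-5p, rno-miR-28-3p, rno-miR-151-5p, rno-miR-151-3p, rno-miR-708-5p and rno-miR-708-3p, written without the species prefix from here on. The set was selected on the measured exosome and fibroblast counts, because miR-28-5p and miR-708-5p, which carry the same seed, differed between the groups in opposite directions. The exosome to fibroblast values of these arms are therefore a description, given with no p-value, and calls by a fit over all miRNAs are counted without being read as evidence. The 3 exosome libraries came from vesicles shed by heart fibroblasts of Wistar rats aged 1 to 2 days, isolated by ultracentrifugation of the culture medium after 48 h on the cells, with 1% serum freed of exosomes beforehand. The 3 fibroblast libraries came from harvested heart fibroblasts of the same strain and age. The labels describe the culture identically for both groups, growth in 10% serum and then the 48 h in 1% serum, and do not say separately which medium the harvested cells had. No allele, drug or other treatment is named for either group. Whether the libraries of a group came from separate cultures or pooled animals is not stated in the labels, so spreads between them may be technical.

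A miRNA hairpin is cut to a short duplex, and 1 arm, the guide, is usually kept by an Argonaute protein while the other is degraded more often. The guide finds messenger RNAs mainly by pairing through its seed, bases 2 to 8 from the 5′ end, so guides with the same seed share many predicted targets. All 3 hairpins lie inside protein-coding genes in the RefSeq rat annotation (GRCr8 assembly). Mir28 lies within Lpp, which encodes a LIM protein of focal adhesions, Mir151 within Ptk2, which encodes focal adhesion kinase, and Mir708 within Tenm4, which encodes a transmembrane teneurin. In human cells miR-151 is known from the migration of liver cancer cells and miR-708-5p is known to repress neuronatin in breast cancer cells.

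RefSeq (GRCr8) held mature sequences for 4 of the 6 arms, shown here 5′ to 3′ with the seed in capitals because the opposite behaviour concerns arms with the same seed. Mature miR-28-5p lies at chr11:89480303-89480324 on the minus strand and miR-708-5p at chr1:160011168-160011190 on the plus strand. The miR-151 arms are named only.
miR-28-5p: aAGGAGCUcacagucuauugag
miR-708-5p: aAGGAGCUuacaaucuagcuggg
miR-28-3p: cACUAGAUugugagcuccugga
miR-708-3p: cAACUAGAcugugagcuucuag

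The seed AGGAGCU was shared by miR-28-5p and miR-708-5p and by no other of 693 mature rat sequences, with which the miR-151 arms were not compared. The 2 arms were identical at 16 of 22 positions. Counted from the 5′ end, the changes from miR-28-5p to miR-708-5p were C9U, G13A, U18G, U19C, G20U and A21G, so that the difference lay outside the seed. The seeds of miR-28-3p (ACUAGAU) and miR-708-3p (AACUAGA) differed, and each was found in 0 other sequences. Both seeds contain the run ACUAGA, at positions shifted against each other. The longest run shared by these 3p arms was 8 bases, UGUGAGCU.

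Library depth bears on every value. The exosome libraries held 120224, 113129 and 118994 miRNA counts (libraries 1, 2 and the one whose column carried no number, called unnumbered here), against 6377441, 12508651 and 2439559 counts in fibroblast libraries 1, 2 and 4. One other miRNA, miR-873-3p, held 84.9%, 87.3% and 90.1% of the exosome counts, against 1.26%, 0.391% and 2.37% of the fibroblast counts. Levels are therefore given as CPM, counts scaled to a miRNA total of 1000000 in each library, and again with miR-873-3p left out of that total. In exosome libraries 1, 2 and unnumbered a median of 8, 7 and 3 counts was found per miRNA. The 9 fibroblast markers, among them miR-143-3p and miR-21-5p, held 0.185% to 1.38% of exosome counts and 52.5% to 53.8% of fibroblast counts. The 6 cardiomyocyte markers, such as miR-1-3p and miR-499-5p, held 0.00252% to 0.0116% of exosome counts and 0.00791% to 0.0172% of fibroblast counts. The 2 endothelial markers, miR-126a-3p and miR-126a-5p, held 0.0840% to 0.0966% of exosome counts and 0.0100% to 0.0152% of fibroblast counts, and the 6 listed blood markers of 7 (miR-486 was not matched) 0.0193% to 0.0283% of exosome counts and 0.0107% to 0.0383% of fibroblast counts. None of these lists had a marker at 0 in all libraries of a group. Without miR-873-3p in the totals, the fibroblast markers held 1.22% to 13.9% in exosomes and 53.0% to 55.2% in fibroblasts. The cardiomyocyte markers, whose shares above overlapped between the groups, then held 0.0254% to 0.0771% in exosomes and 0.00810% to 0.0172% in fibroblasts. The blood markers then held 0.187% to 0.216% in exosomes and 0.0109% to 0.0384% in fibroblasts. No cardiomyocyte marker had more than 5 counts in any exosome library. The endothelial share depended on the deposited table: with the reads behind the normalized table it was 0.00622% to 0.0185% in exosomes and 0.00885% to 0.0143% in fibroblasts, which overlap. The part that other cells or vesicles have in the values below was not tested.

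The 5p arm of miR-28 was abundant in fibroblasts and nearly missing from exosome libraries. Exosome libraries 1, 2 and unnumbered gave 2, 0 and 2 counts of rno-miR-28-5p, against 5995, 9043 and 1322 counts from fibroblast libraries 1, 2 and 4. This equalled 16.6, 0 and 16.8 CPM in exosomes and 940.0, 723 and 542 CPM in fibroblasts, with no overlap. Over all tested miRNAs the CPM of the groups did not overlap for 30.1%. Without miR-873-3p in the totals the means of miR-28-5p were 93.1 ± 85.8 CPM in exosomes and 744 ± 199 CPM in fibroblasts (SD, n = 3 each), again with no overlap, as for 57.5% of all tested miRNAs on that scale. The 0 in exosome library 2 allows a share of up to 0.00265% (3 counts of the total). The exosome sum of 4 counts had an exact 95% Poisson interval of 1.09 to 10.2, which covers counting error only, as do all intervals here. At the fibroblast share the exosome libraries would have held 259 counts, or 33.0 counts if miR-873-3p is left out of all totals. By mean CPM miR-28-5p was at rank 77 of 728 in fibroblasts and at rank 658 in exosomes.

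**Figure D1:**
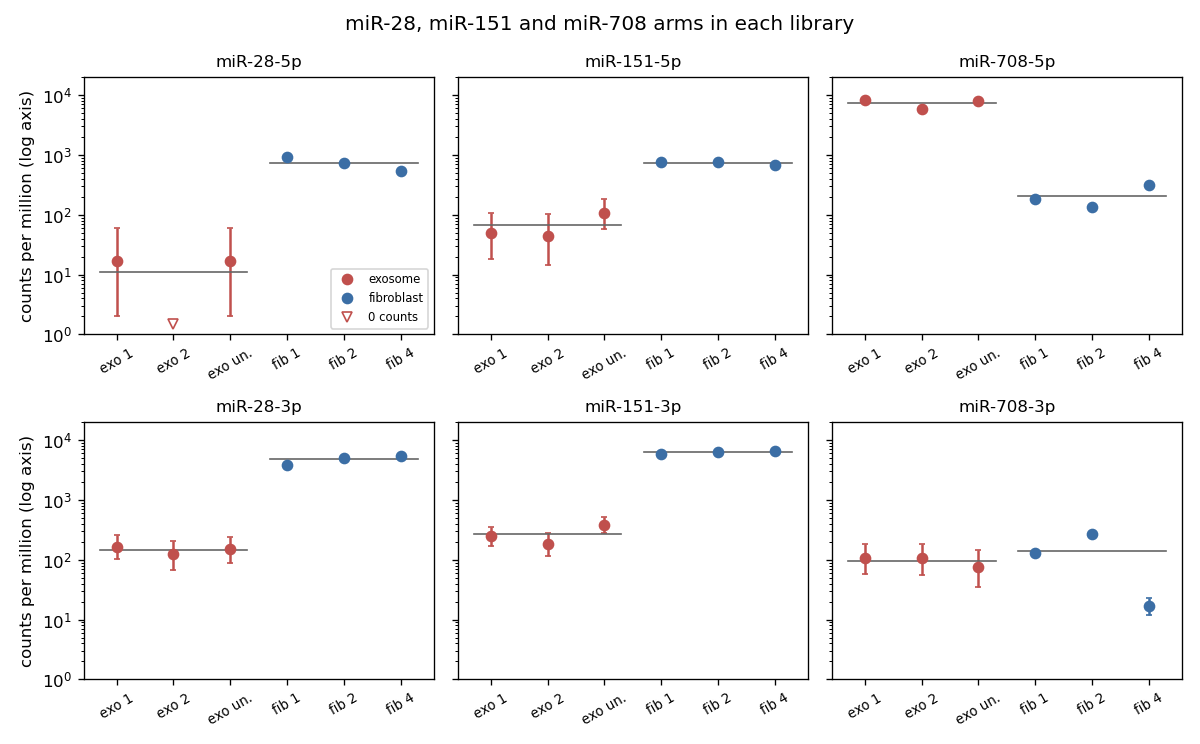
CPM (log axis) of each arm in the 3 exosome and 3 fibroblast libraries, with 95% Clopper-Pearson intervals (counting error only), group means as grey lines and an open triangle for 0 counts. The miR-28 and miR-151 arms lie lower in exosomes, miR-708-5p lies higher at 5834 to 8359 CPM, and miR-708-3p overlaps between the groups.

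The seed partner miR-708-5p went the other way. rno-miR-708-5p gave 1005, 660 and 944 counts in exosomes, against 1176, 1672 and 761 counts in fibroblasts. These were 8359, 5834 and 7933 CPM in exosomes and 184, 134 and 312 CPM in fibroblasts, again with no overlap. Its mean was 7376 ± 1352 CPM in exosomes and 210.0 ± 91.9 CPM in fibroblasts (SD, n = 3 each). Without miR-873-3p in the totals the means were 60397 ± 17460 CPM in exosomes and 213 ± 95.5 CPM in fibroblasts (SD, n = 3 each), a wider gap, with a log2 ratio of means of 8.14 against 5.13 on plain CPM. It was at rank 3 of 728 in exosomes and at rank 182 in fibroblasts.

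Within a library the ratio of the 2 arms needs no scaling between libraries. The log2 ratio of miR-708-5p to miR-28-5p, with 0.5 added to each count, was 8.65, 10.37 and 8.56 in exosome libraries 1, 2 and unnumbered. It was -2.35, -2.43 and -0.80 in fibroblast libraries 1, 2 and 4. miR-708-5p thus exceeded its seed partner in each exosome library and fell short of it in each fibroblast library. The group means were 9.19 ± 1.02 in exosomes and -1.86 ± 0.92 in fibroblasts (SD, n = 3 each), a difference of 11.05 on the log2 scale. The exosome side of this ratio rests on the 4 counts of miR-28-5p.

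Between the groups the raw counts of miR-708-5p hardly followed depth. Over the 6 libraries they differed 2.53-fold at most, while the total miRNA counts differed 111-fold. This contrast is largely the group difference on which the arm was chosen. Within fibroblasts the miR-708-5p counts rose with depth, from 761 in library 4 to 1176 in library 1 and 1672 in library 2. The exosome libraries had nearly equal depth. Of the 263 miRNAs with at least 30 exosome counts in sum, 3 had a fibroblast sum under 2 times the exosome sum: miR-873-3p at 0.607, miR-708-5p at 1.38 and miR-93-3p at 1.45, where the median of the 263 was 73.5. miR-93-3p, whose hairpin belongs to the miR-106b/25 cluster, had 721, 684 and 762 counts in exosomes and 779, 1823 and 543 counts in fibroblasts. Others lay just past the limit of 2, such as miR-126a-3p at 2.32 by raw counts. Likewise miR-3552 had 1010, 928 and 920 counts in exosomes and 1095, 4417 and 739 counts in fibroblasts. miR-708-5p came to 9.85, 6.68 and 8.81 counts per 1000 counts of miR-873-3p in exosome libraries 1, 2 and unnumbered, and to 14.7, 34.1 and 13.1 in fibroblast libraries 1, 2 and 4. miR-28-5p came to 0.0196, 0 and 0.0187 in exosomes and to 74.8, 185 and 22.8 in fibroblasts. The sequences of miR-873-3p and miR-93-3p are shown with their seeds in capitals, because neither seed equals that of miR-708-5p (GRCr8, RefSeq).
miR-873-3p: gAGACUGAcaaguucccggga
miR-93-3p: aCUGCUGAgcuagcacuucccga

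**Figure D2:**
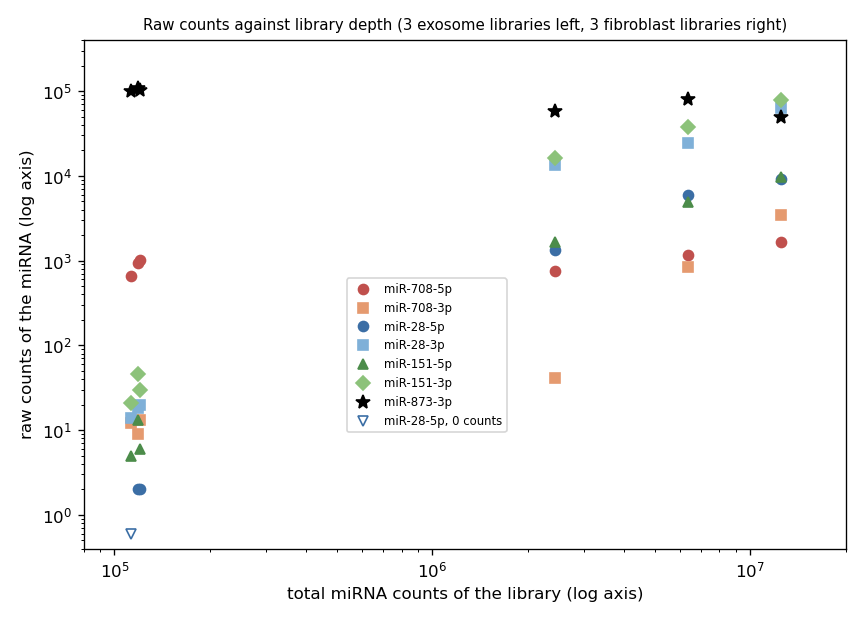
Raw counts of the 6 arms and of miR-873-3p (log axis) against the total miRNA counts of each library (log axis); the open triangle stands for 0 counts of miR-28-5p. Counts of the miR-28 and miR-151 arms are higher in the deeper fibroblast libraries, while miR-708-5p stays between 660 and 1672 counts in all 6 libraries.

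The deposited normalized table rests on slightly fewer reads, and the difference was uneven for miR-708-5p. It held 1005, 660 and 944 reads of miR-708-5p in exosomes, the same as the raw counts, and 747, 1162 and 698 reads in fibroblast libraries 1, 2 and 4. For fibroblast libraries 1 and 2 no miRNA stands at 1 read in that table, so their reads rest on the scale of the raw counts. Summed over fibroblasts, the table held 72.2% of the raw miR-708-5p counts, where the median was 99.4% over 529 miRNAs with at least 1000 fibroblast counts, and 9 of them had a lower share. For the other 5 arms the fibroblast share was at least 98.2%. In exosomes the table held 3, 3 and 13 of the 6, 5 and 13 counts of miR-151-5p.

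The 3p arm of miR-28 was the more abundant arm of its hairpin and was lower in exosomes as well. rno-miR-28-3p had 20, 14 and 18 counts in exosomes and 24615, 63804 and 13425 counts in fibroblasts. This gave 147 ± 21.6 CPM in exosomes and 4821 ± 857 CPM in fibroblasts (SD, n = 3 each), with no overlap. Without miR-873-3p in the totals the means were 1199.9 ± 286 CPM in exosomes and 4889 ± 887 CPM in fibroblasts (SD, n = 3 each), and the groups still did not overlap.

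Both miR-151 arms were lower in exosomes by CPM. miR-151-3p, the most abundant of the 6 arms in fibroblasts, had 30, 21 and 46 counts in exosomes and 37544, 78178 and 16122 counts in fibroblasts. Its means were 274 ± 103 CPM in exosomes and 6248 ± 361 CPM in fibroblasts (SD, n = 3 each). miR-151-5p had 6, 5 and 13 counts in exosomes and 4867, 9705 and 1641 counts in fibroblasts, or 67.8 ± 36.0 CPM in exosomes and 737 ± 56.3 CPM in fibroblasts (SD, n = 3 each). The unnumbered exosome library held the most of both arms. Leaving miR-873-3p out of the totals changed the picture for miR-151-5p: it had 330.3, 349 and 1099 CPM in exosomes and 773, 779 and 689 CPM in fibroblasts, so the groups overlapped. For miR-151-3p the groups did not overlap on that scale, at 2335 ± 1349.6 CPM in exosomes and 6335 ± 407 CPM in fibroblasts (SD, n = 3 each).

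The annotation has a further miRNA gene over Mir151, Mir151b, listed in the counts under its older name miR-3586. Its 3p arm had 4, 2 and 4 counts in exosomes and 3224, 7454 and 1032 counts in fibroblasts, and its 5p arm 5, 7 and 0 counts in exosomes and 63, 624 and 21 counts in fibroblasts. Whether strand was used in counting is not given in the sources used here, so reads of the 2 overlapping genes may not be fully told apart.

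The 3p arm of miR-708 was the least abundant of the 6 arms in fibroblasts by mean CPM, at rank 241 of 728, and was at rank 233 in exosomes. It had 13, 12 and 9 counts in exosomes and 836, 3407 and 41 counts in fibroblasts, with 96.6 ± 18.2 CPM in exosomes and 140.1 ± 128 CPM in fibroblasts (SD, n = 3 each). The groups overlapped, since fibroblast library 4 had 16.8 CPM, below every exosome library. Without miR-873-3p in the totals they did not overlap, at 771 ± 61.3 CPM in exosomes and 141 ± 128 CPM in fibroblasts (SD, n = 3 each). The direction for miR-708-3p thus turned with the scaling.

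Set against the 3p arm of miR-28 in the same library, miR-708-3p was also relatively higher in exosomes. The log2 ratio of miR-708-3p to miR-28-3p was -0.60, -0.21 and -0.96 in exosomes and -4.88, -4.23 and -8.34 in fibroblasts, with no overlap. The ratio of miR-151-3p to miR-28-3p moved little by comparison. It was 0.57, 0.57 and 1.33 on the log2 scale in exosomes and 0.61, 0.29 and 0.26 in fibroblasts, and these values overlapped. How often such ratios overlap for other pairs of miRNAs was not counted, so nothing is read from the overlap here. The exosome ratios of miR-708-3p to miR-28-3p rest on 13, 12 and 9 counts against 20, 14 and 18.

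The arms of a hairpin were used differently. Of miR-28 counts the 5p arm made up 6.36% ± 5.53 in exosomes and 13.7% ± 5.42 in fibroblasts (SD, n = 3 each), and the groups overlapped. The exosome shares rest on 22, 14 and 20 counts of both arms, and the 95% Clopper-Pearson interval of the unnumbered library ran from 1.23% to 31.7%. For miR-151 the 5p arm made up 19.3% ± 2.68 in exosomes and 10.6% ± 1.19 in fibroblasts (SD, n = 3 each). The groups did not overlap, but each exosome interval was wide, as in library 1 at 16.7% (6.37% to 32.8%) from 36 counts. With the reads behind the normalized table the groups overlapped, at 9.09%, 12.5% and 22.0% in exosome libraries 1, 2 and unnumbered and 11.4%, 10.8% and 9.19% in fibroblast libraries 1, 2 and 4.

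miR-708 was the hairpin of the 3 in which the 5p arm led. Its 5p share was 98.7%, 98.2% and 99.1% in exosome libraries 1, 2 and unnumbered. In fibroblast libraries 1, 2 and 4 it was 58.4%, 32.9% and 94.9%, so that the 3p arm led in fibroblast library 2. With the reads behind the normalized table the 3p arm led in fibroblast library 1 as well, where the 5p share was 47.4%. The spread between the fibroblast libraries, an SD of 2.69 for the log2 ratio of 5p to 3p, was at rank 3 of 265 hairpins with both arms listed, counted from the largest. The exosome minus fibroblast difference of that ratio was 4.97 (means of 6.19 in exosomes and 1.22 in fibroblasts), at rank 5 of 265 counted from the highest, while miR-151 was at rank 80 with 1.09 and miR-28 at rank 167 with -0.86. The fibroblast mean of miR-708 thus averages libraries that differ widely. The set was chosen on 5p arms that enter these ratios, so nothing is read from the ranks of the group difference. The exosome ratios of miR-708 rest on 13, 12 and 9 counts of the 3p arm.

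**Figure D3:**
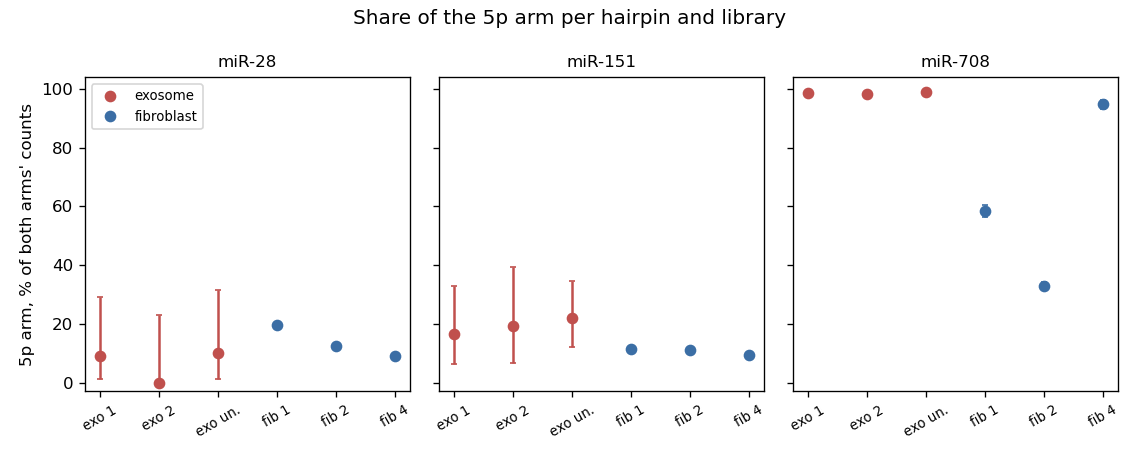
Share of the 5p arm among the counts of both arms, in percent, per hairpin and library, with 95% Clopper-Pearson intervals (counting error only). miR-28 and miR-151 stay at or below 22.0% in every library, while miR-708 lies at 98.2% to 99.1% in exosomes and between 32.9% and 94.9% in fibroblasts.

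Ordered by mean CPM in exosomes, miR-708-5p came first, followed by miR-151-3p, miR-28-3p, miR-708-3p, miR-151-5p and miR-28-5p. Of the neighbours in this order, miR-708-3p and miR-151-5p overlapped between libraries and the others did not. In fibroblasts the order was miR-151-3p, miR-28-3p, miR-151-5p, miR-28-5p, miR-708-5p and miR-708-3p. There the 5p arms of miR-151 and miR-28, at 737 ± 56.3 and 735 ± 199 CPM, did not differ beyond their spread. Nor did the mean CPM of the miR-708 arms. Within each fibroblast library, however, the miR-708 arms differed beyond counting error, with the 3p arm ahead in library 2 only. Each read stands for 1 mature miRNA, and the 4 arms with a sequence were 22 or 23 bases long, so levels were compared with no scaling by length.

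A fit over all miRNAs with edgeR and TMM scaling gave the changes in common units. All 6 arms passed its count filter. The log2 fold change, exosome over fibroblast, was -5.73 (SE 0.97) for miR-28-5p, -4.58 (SE 1.14) for miR-28-3p, -3.85 (SE 1.15) for miR-151-3p and -2.82 (SE 0.78) for miR-151-5p. It was 5.51 (SE 1.33) for miR-708-5p and 0.16 (SE 0.62) for miR-708-3p. At an adjusted p threshold of 0.05, 4 of the 6 arms were called lower and 1 was called higher. Of all 698 tested miRNAs, 18.6% were called lower and 11.3% higher. The choice of the arms used this contrast, so nothing is read from their count. Without exosome library 1, and likewise without exosome library 2, only the miR-28 arms were called lower, 2 of 6. The direction of miR-708-3p also turned in this fit, at -0.54 with total counts, -1.02 with reads that match no listed miRNA as library size and 0.47 with miR-873-3p left out. The other 5 arms kept their direction under all 14 alternatives that were run.

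**Figure D4:**
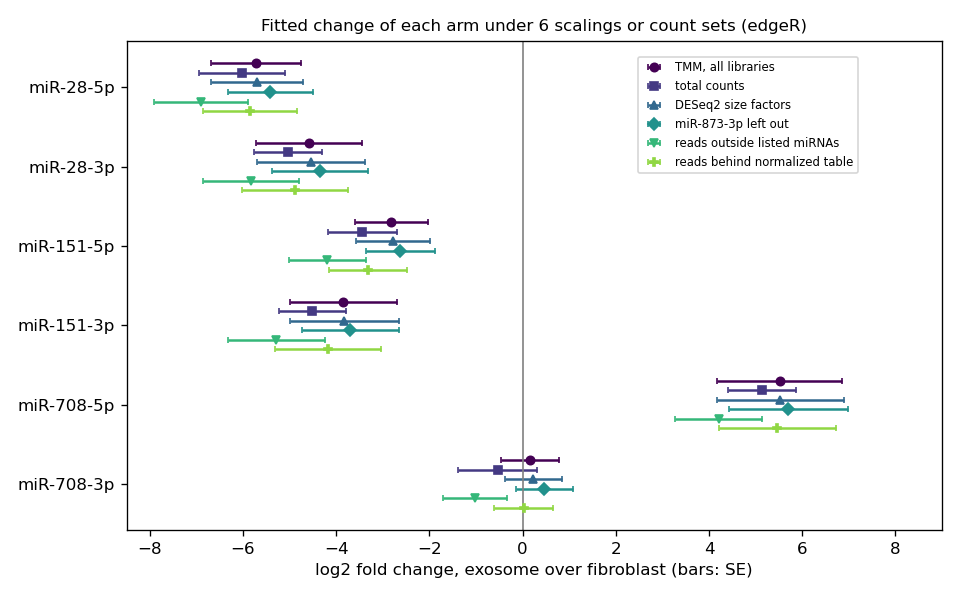
Log2 fold change, exosome over fibroblast, of each arm (points) with its SE (bars) from edgeR under 6 scalings or count sets. The miR-28 and miR-151 arms lie below 0 and miR-708-5p above 0 under each of the 6, and miR-708-3p lies on either side of 0.

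In the authors' deposited table, which runs fibroblast over exosome, the log2 fold changes were 5.28 for miR-28-5p, 4.53 for miR-28-3p, 2.74 for miR-151-5p, 3.79 for miR-151-3p, -5.84 for miR-708-5p and -0.25 for miR-708-3p. A positive value there means higher in fibroblasts, so each arm had the same direction as in the TMM fit. At an adjusted p threshold of 0.05 the miR-28 and miR-151 arms passed there, while miR-708-5p did not, unlike in the TMM fit. The arms were chosen on this contrast, so nothing is read from these calls.

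The miRNAs with the most similar profiles were found over the 6 libraries among 424 with a mean of at least 50 CPM, by the root mean square difference of centred log2 CPM. For miR-28-5p the nearest was miR-152-3p, a miRNA hosted by Copz2, at 0.37 (median of all candidates 3.91), with 4, 0 and 2 counts in exosomes and 5409, 9831 and 1394 counts in fibroblasts. miR-322-5p at 0.73, with 1, 0 and 5 counts in exosomes, and miR-24-2-5p at 0.77, with 8, 0 and 2, followed. Like miR-28-5p, all of them had 0 counts in exosome library 2, so this likeness rests on very few exosome counts. For miR-708-5p the nearest were miR-93-3p at 0.28, miR-126a-3p at 0.38 and miR-3552 at 0.53 (median 3.21). For miR-151-3p they were miR-214-3p at 0.18, miR-181a-5p at 0.27 and let-7c-5p at 0.29 (median 2.23), and for miR-151-5p miR-192-5p at 0.29, miR-30a-5p at 0.34 and miR-221-3p at 0.35 (median 1.91). Between the seed partners miR-28-5p and miR-708-5p the same distance was 6.43, the largest of any pair among the 6 arms. Nothing is read from this, because the set was chosen for the opposite directions of these 2 arms in the same values. The distance also rests on the 4 exosome counts of miR-28-5p.

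Other miRNAs known from introns of protein-coding genes were listed by name for comparison, with 87 arms under 42 names, 83 of them past the count filter. Numbered copies of a name, such as miR-30c-1 and miR-30c-2, were all counted. Whether each copy lies in such an intron was not checked. By edgeR's quasi-likelihood test, Benjamini-Hochberg adjusted over all miRNAs, 23 of these 83 fell and 7 rose in exosomes, and 53 did not pass. Of all 698 tested miRNAs, 18.6% were called lower and 11.3% higher. The list was chosen with earlier results of these data known, so nothing is read from its counts. Their median log2 fold change was -0.62, against -0.15 for all tested miRNAs, and both stayed the same with miRNAs at 0 exosome counts set to their bound. Without exosome library 1, 13 were lower and 4 higher, and without exosome library 2 the counts were again 13 and 4.

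Those lower included miR-152-3p (log2 -5.18, SE 0.91), miR-148b-3p (log2 -5.05, SE 1.49), its relative hosted by Copz1, and miR-26a-5p (log2 -4.54, SE 1.48), hosted by a small phosphatase gene. No exosome library held a count of miR-148b-5p, while fibroblasts had 398, 964 and 102 counts. Taking 3 counts over the exosome group as the floor, it was at least 5.04-fold lower in exosomes on the TMM-scaled CPM of pooled counts. Those higher included miR-93-3p (log2 5.68, SE 1.30), miR-126a-3p of the endothelial gene Egfl7 (log2 4.85, SE 0.85), miR-208b-5p of a cardiac myosin gene (log2 2.55, SE 0.87) and miR-7a-5p (log2 2.43, SE 0.84). miR-126a-3p had 113, 91 and 98 raw exosome counts, of which the normalized table held 11, 3 and 5, and with those reads its log2 fold change was 1.17 (SE 0.69) and did not pass the test. The exosome counts of miR-208b-5p were 9, 3 and 3 and those of miR-7a-5p 9, 4 and 3. Arms higher and lower in exosomes thus occurred among the listed miRNAs outside the miR-28, miR-151 and miR-708 hairpins as well, as they did among all tested miRNAs.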

How the data were processed

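Small RNA was sequenced from exosomes (3 libraries) and heart fibroblasts (3 libraries). The raw counts that the authors deposited, whole-number reads of each mature miRNA, entered all fits. Their second deposited table holds a normalized signal in which each library's counts share 1 divisor. Undoing it gave reads within 0.000332 of whole numbers, 99.3% to 99.8% of the raw total. The divisor was found from the ratio to the raw counts; in fibroblast libraries 1 and 2 the lowest value stood for 2 and 13 reads, so it could not be read from single reads there. Its last row, rest, stands for no miRNA. It held 77.2% to 84.4% of the reads in exosomes and 63.1% to 82.4% in fibroblasts and stayed out of library sizes except where stated. The authors' deposited comparison holds mean normalized counts, a fold change (ratio), its log2 value and p-values, per the file headers. The submitters' processing notes name CASAVA 1.8.2, cutadapt 1.2.1, DESeq and build rn5. The aligner, the way reads were assigned and the miRNA release: not given in the sources used here. Columns were matched to samples by name, and 1 exosome column had no number.

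Counts were fitted with edgeR 4.0.16 in R 4.3.3 (TMM, quasi-likelihood test, two-sided, Benjamini-Hochberg threshold 0.05). The filter, filterByExpr with minimum count 10 and total 15, removed 30 of 728 miRNAs. The fit was also run on simulated counts with a common dispersion for all miRNAs. That setting is simpler than these data, so nothing is read from it. TMM factors were 1.34, 1.13 and 0.432 in exosome libraries 1, 2 and unnumbered and 0.968, 1.99 and 0.792 in fibroblast libraries 1, 2 and 4. SE is the size of the log2 fold change over the square root of F. Ratios within a library used a pseudocount of 0.5. Profiles used a prior count of 2, which edgeR scales to library size. In exosome libraries it was thus far below 2 counts and damped a count of 0 little. DESeq2 1.42.0 and other scalings were alternatives. Intervals are 95% Clopper-Pearson or exact Poisson. All pairs of libraries within a group differed beyond sampling noise, with a chi-square of 4.10 to 621 per degree of freedom.

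The members and lists were chosen with earlier results of these data known. Named were the 6 arms, miRNAs with the seed of a member, miR-873-3p, the 4 called arms of the intronic list with the largest change in each direction and groups that did not overlap, and the 3 nearest profiles of 4 arms. miR-93-3p as a near-constant count and miR-3586 as the miRNA overlapping miR-151 were chosen after their values were seen.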

Additional observations from a re-analysis of the deposited data

How the results depend on the processing

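How many miRNAs were called moved with the scaling. Over all 698 tested miRNAs, 130 were lower and 79 higher in exosomes with TMM. With total counts the calls were 121 and 43 of 698, and with library sizes from the rest row 237 and 31 of 683. With miR-873-3p left out they were 117 and 105 of 695, with DESeq2 122 and 92 of 728 and with no filter 148 and 68 of 728. The number tested thus differed between the settings as well. Over all tested miRNAs the median log2 change was -0.15 with TMM, -0.57 with total counts, 0.21 with miR-873-3p left out and -1.14 with the rest row. Of the intronic list, 23 were lower and 7 higher with TMM. The number higher was 2 with total counts, 11 with miR-873-3p left out and 4 with the reads behind the normalized table, and with the rest row 39 were lower and 2 higher. The cause was not tested.

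Leaving out 1 library at a time gave 2 to 4 of the 6 arms lower and 1 higher, 86 to 139 of all tested lower and 46 to 78 higher, and 13 to 26 of the intronic list lower and 3 to 6 higher. Without fibroblast libraries 1, 2 and 4 in turn the filter left 402, 359 and 414 miRNAs. Without exosome libraries 1, 2 and unnumbered it left 720, 724 and 725, so these counts have unlike totals. Over the 14 alternatives the log2 fold change ran from -6.91 to -5.28 for miR-28-5p, -5.83 to -4.25 for miR-28-3p, -4.25 to -2.39 for miR-151-5p, -5.28 to -3.54 for miR-151-3p, 4.21 to 6.10 for miR-708-5p and -1.02 to 0.47 for miR-708-3p. The log2 ratio of mean CPM moved outside these ranges. On plain CPM it was -6.04 for miR-28-5p, -5.03 for miR-28-3p, -3.44 for miR-151-5p and -4.51 for miR-151-3p. Without miR-873-3p in the totals it was -2.999, -2.03, -0.33 and -1.44 for these arms in turn. With the same change it went from 5.13 to 8.14 for miR-708-5p and from -0.54 to 2.45 for miR-708-3p. The difference of the log2 ratio of miR-708-5p to miR-28-5p, 11.05, was 10.47 to 11.59 with a library left out, 10.55 with a pseudocount of 1 and 11.48 with the reads behind the normalized table. The miR-151 arm ratio difference, 1.09, was 0.60 with those reads.

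Samples numbered 1 and 2 occur in both groups, but nothing in the labels pairs them, and the correlation across miRNAs of their deviations from the group means was -0.07 for number 1 and 0.16 for number 2. With the replicate number as a block, 138 of all tested were lower and 96 higher, 4 and 1 of the 6 arms, and 26 and 8 of the intronic list. Exosome depth limits what can be read: miR-28-5p rests on 4 exosome counts and miR-151-5p on 24.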
